A study of Mus musculus with 22 samples.

Results

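The 10 genes described here encode transcription factors of the presomitic mesoderm and the somites: Tbx6, Msgn1, Meox1, Tcf15, Foxc1, Foxc2, Uncx, Tbx18, Pax1 and Pax3. They were taken by gene symbol from the 55055 genes common to the 4 deposited count tables, and each symbol matched 1 gene. The study sequenced poly(A) RNA of mouse embryonic stem (mES) cells, of endoderm cultures and of gastruloids, in 22 libraries and 10 groups, to ask what changes when all Hox function is lost. Gastruloids are aggregates of stem cells that form tissues of the early embryo in a dish. Wild-type (wt) and Hox-/- mES cells, titled BADC in the sample names, gave 2 libraries each; the number of clones used for either genotype is not stated in the labels. All cells were maintained in serum medium with LIF, 3 μM of the GSK-3 inhibitor CHIR99021 (Chiron) and 1 μM of the MEK1/2 inhibitor PD0325901. Wt and Hox-/- endoderm cultures, with 3 libraries each, received 100 ng/ml Activin A and 3 μM CHIR99021 from 24 h, again at 72 h, and were harvested at 120 h. Gastruloids were treated with Activin A (wt and Hox-/-) or with Chiron (wt alone) and collected at 96 h and at 120 h, with 2 libraries per group; their labels state neither dose nor duration of treatment. Endoderm cultures and gastruloids are labelled mixed cells.

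In the embryo, presomitic mesoderm is laid down at the tail end and is cut at regular intervals into somites, the blocks that form vertebrae, ribs, skeletal muscle and dermis. Tbx6 and Msgn1 act in the unsegmented tissue, where Wnt and Notch signals run the segmentation clock. Meox1, Tcf15, Foxc1 and Foxc2 act in forming and formed somites. Uncx marks the posterior and Tbx18 the anterior part of each somite; Pax1 marks the sclerotome, which forms vertebrae, and Pax3 the dermomyotome, which forms muscle and dermis. None of them is specific to somites. Pax3 is also made in dorsal neural tube and neural crest, Pax1 in pharyngeal endoderm, Foxc1 and Foxc2 in vessels and kidney precursors, and Tbx18 in heart and urogenital mesenchyme.

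Library totals ran from 9.11 to 28.8 M (mega) counts. Gastruloid libraries held 15 to 28.8 M at 96 h and 9.11 to 11.9 M at 120 h, so depth and time cannot be told apart in any comparison between the times. Levels are given in CPM, the count of a gene scaled to the library total. A gene is at the floor in a group when no library of that group holds more than 3 counts of it, which corresponds to 0.104 to 0.329 CPM. The summed level of the 39 Hox genes was 33.1 CPM in wt and 0.896 in Hox-/- mES cells, and 859 and 25.8 in endoderm cultures. In Activin A gastruloids it was 643 and 103 at 96 h and 1179 and 66.6 at 120 h. It was lower in the libraries labelled Hox-/- throughout, and among Hox-/- groups it was highest in the 96 h gastruloids. The stem cell regulator Pou5f1 was at 1301 to 1308 CPM in wt and 1216 to 1254 in Hox-/- mES cells. The endoderm regulators Sox17 and Foxa2 were at 24.5 and 18.6 CPM in wt endoderm cultures and at 4.89 and 4.18 in Hox-/- ones (means, n = 3), so the label endoderm covers lower levels of these markers in Hox-/-. The pair of Chiron libraries at 96 h stood apart from all other replicate pairs: across genes, chi-square over degrees of freedom was 10.3 between them, against 1.37 to 6.3 elsewhere. In that pair 8 of the 10 members were higher in replicate 1, and 7 of them by at least 1.3 times. Labels do not say that replicates were separate cultures, so p-values measure only the spread between these libraries, which may be technical.

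**Figure D1:**
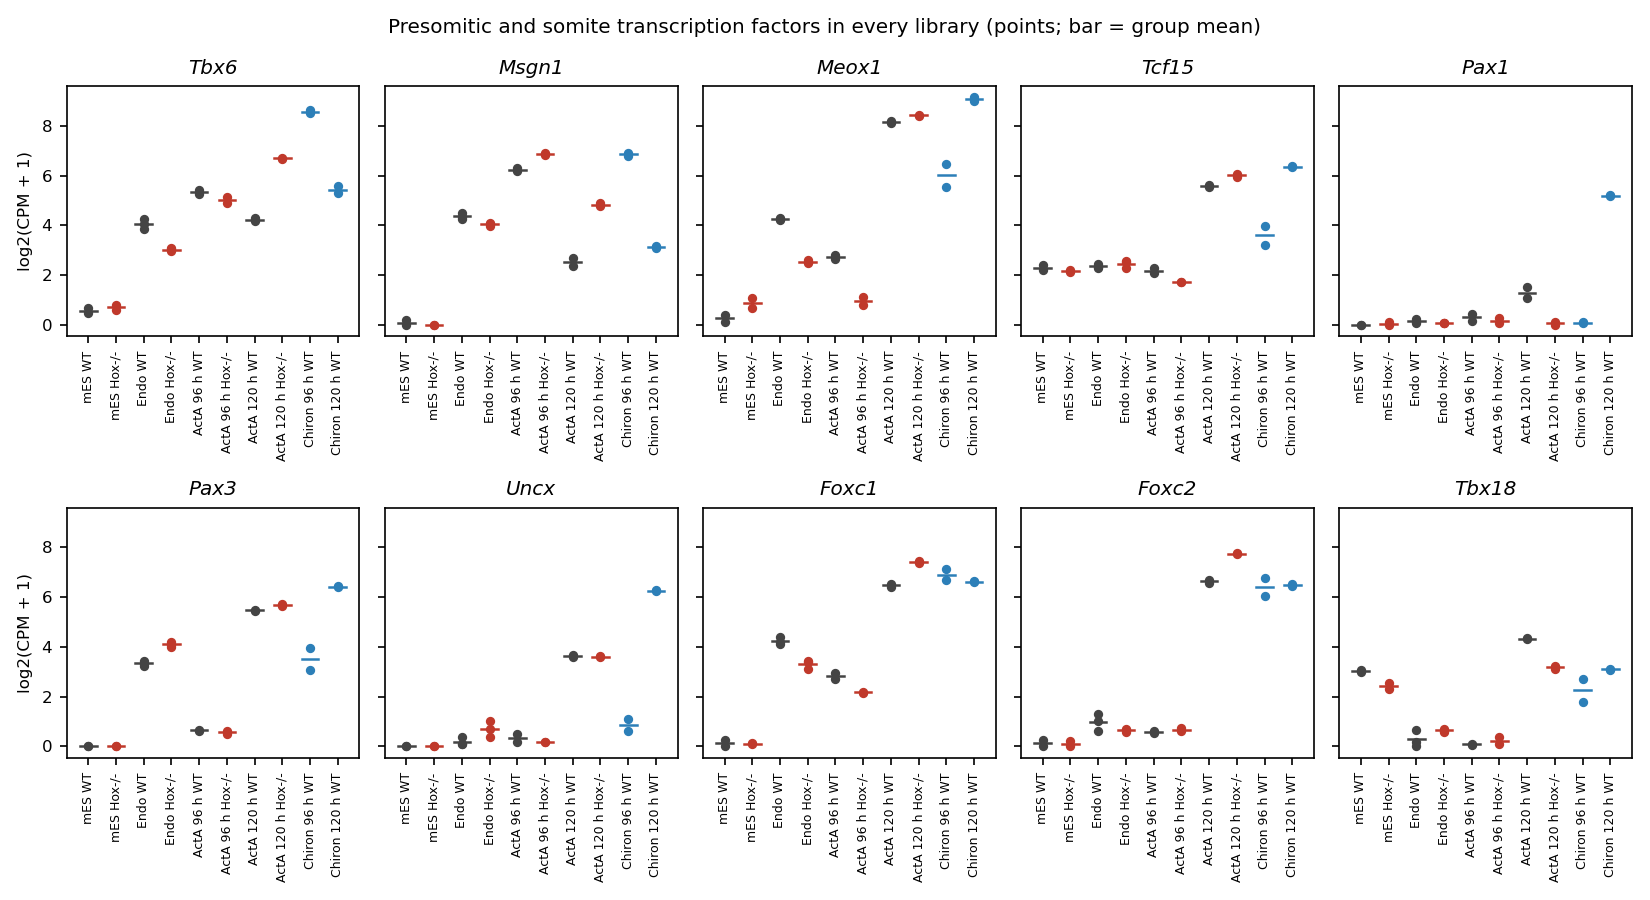
CPM of the 10 members in each of the 22 libraries, by group, on a log axis. Most members stand highest in the 120 h gastruloids, Tbx6 in Chiron gastruloids at 96 h, and Msgn1 in gastruloids at 96 h.

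Tbx6 and Msgn1, the regulators of unsegmented presomitic mesoderm, are described first. Tbx6 is a T-box factor without which paraxial mesoderm turns into neural tissue; it lies at chr7:126781483-126785560 (plus strand, GRCm38, 8 exon blocks). Msgn1 is a basic helix-loop-helix factor that drives cells out of the progenitor state; it lies in 1 exon at chr12:11208360-11208972 (minus strand). In Activin A gastruloids at 120 h, Tbx6 was at 18.5 and 17.1 CPM in wt and at 102 and 105 CPM in Hox-/-. Msgn1 was at 5.51 and 4.17 CPM in wt and at 26.5 and 28.5 CPM in Hox-/-. Every Hox-/- library was above every wt library for both genes. In edgeR's quasi-likelihood test with Benjamini-Hochberg adjustment over all genes, Tbx6 was higher in Hox-/- by 2.65 ± 0.08 (log2 fold change ± SE, adjusted p = 5.43e-31). Msgn1 was higher by 2.61 ± 0.14 (adjusted p = 5.96e-22). All log2 fold changes below come from this test, after TMM scaling, and a gene is called at an adjusted p under 0.05.

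At 96 h the 2 genes moved apart. Tbx6 was at 42.3 and 37.4 CPM in wt and at 34.3 and 28.6 CPM in Hox-/- Activin A gastruloids, lower by a log2 fold change of -0.27 ± 0.07 (edgeR, adjusted p = 0.00123). The call for Tbx6 was lost without wt replicate 1 or without Hox-/- replicate 2. Msgn1 was at 77.2 and 72.9 CPM in wt and at 121 and 114 CPM in Hox-/-, higher by 0.70 ± 0.05 (edgeR, adjusted p = 1.23e-17), which was lost with limma on FPKM. From 96 h to 120 h Msgn1 fell by 4.02 on the log2 scale in wt and by 2.11 in Hox-/-. Tbx6 fell by 1.23 in wt and was higher at 120 h by 1.69 in Hox-/-. The difference between these time courses, the genotype by time interaction, was 2.92 ± 0.11 for Tbx6 (edgeR, adjusted p = 3.39e-27) and 1.91 ± 0.15 for Msgn1 (8.69e-15). So Tbx6 changed in opposite directions in the 2 genotypes between the same times, while Msgn1 fell in both and by less in Hox-/-.

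Chiron gastruloids held the highest Tbx6 level of the series, 398 and 366 CPM at 96 h, and were at 38.1 and 46.8 CPM at 120 h. Msgn1 was at 110 and 121 CPM at 96 h and at 7.96 and 7.42 CPM at 120 h. Both genes thus stood higher at 96 h than at 120 h, by log2 changes over time of -3.29 ± 0.07 and -4.01 ± 0.10 (edgeR, adjusted p = 1.78e-20 and 4.22e-20). Wt Activin A gastruloids were below Chiron gastruloids for Tbx6 by a log2 difference of -3.32 ± 0.07 at 96 h and -1.29 ± 0.11 at 120 h (edgeR, adjusted p = 6.98e-22 and 1.41e-09). For Msgn1 the differences were -0.69 ± 0.06 and -0.72 ± 0.18 (adjusted p = 7.17e-10 and 0.00264); the call at 120 h was lost without Activin A replicate 2. Ordered by level, Msgn1 stood at 117 CPM (mean) in Hox-/- Activin A and 115 CPM in Chiron gastruloids at 96 h, neighbours whose libraries overlapped. For Tbx6 the Chiron gastruloids at 120 h (42.4 CPM) and the wt Activin A gastruloids at 96 h (39.9 CPM) overlapped.

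The sequence upstream of the start is printed for this pair, both higher in Hox-/- than in wt Activin A gastruloids at 120 h, and for Foxc1 and Tbx18, of which the first was higher and the second lower there. The sequences are RefSeq's for GRCm38.p6, read on the gene's strand, and end 1 base before the annotated start. RefSeq windows were found for 6 of the 10 members. Capitals mark matches, on either strand, to 5 core motifs: AGGTGT (T-box), CTTTGA (TCF/LEF, the factors of Wnt signalling), TGGGAA (RBPJ, the factor of Notch signalling), GTAAACA (forkhead) and TAATTA (homeodomain, its own reverse complement). Tbx6 at chr7:126781233-126781482 (plus strand), Msgn1 at chr12:11208973-11209198 (minus), Foxc1 at chr13:31806396-31806632 (plus) and Tbx18 at chr9:87731261-87731510 (minus) read:
Tbx6: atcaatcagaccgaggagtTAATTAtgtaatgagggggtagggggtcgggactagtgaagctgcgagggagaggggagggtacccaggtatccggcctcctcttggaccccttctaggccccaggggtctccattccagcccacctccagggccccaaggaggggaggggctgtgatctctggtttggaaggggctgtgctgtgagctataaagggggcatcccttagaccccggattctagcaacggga
Msgn1: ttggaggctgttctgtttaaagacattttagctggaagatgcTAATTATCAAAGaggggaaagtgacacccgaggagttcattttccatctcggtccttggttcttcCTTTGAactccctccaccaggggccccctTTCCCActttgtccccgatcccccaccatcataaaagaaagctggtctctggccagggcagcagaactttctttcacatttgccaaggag
Foxc1: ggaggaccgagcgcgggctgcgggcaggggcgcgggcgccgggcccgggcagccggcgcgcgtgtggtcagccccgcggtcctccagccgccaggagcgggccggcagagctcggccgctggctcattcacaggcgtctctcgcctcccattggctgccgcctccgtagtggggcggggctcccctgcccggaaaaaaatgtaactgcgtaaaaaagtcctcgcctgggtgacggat
Tbx18: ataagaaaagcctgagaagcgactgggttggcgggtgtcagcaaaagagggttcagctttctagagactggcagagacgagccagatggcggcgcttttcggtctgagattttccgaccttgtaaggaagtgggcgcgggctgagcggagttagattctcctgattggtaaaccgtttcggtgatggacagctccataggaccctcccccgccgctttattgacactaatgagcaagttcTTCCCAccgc
Positions are those of the first base of a match, with -1 the last base before the start. The Tbx6 stretch holds TAATTA at -231 from the start. The Msgn1 stretch holds CTTTGA at -119 and, on the other strand, at -178, next to TAATTA at -184; TGGGAA lies on the other strand at -90. Over 32851 RefSeq windows of 250 upstream bases, CTTTGA was found in 13.8%, TGGGAA in 21.6%, AGGTGT in 11.8%, TAATTA in 4.84% and GTAAACA in 3.17%. The Tbx18 stretch holds TGGGAA on the other strand at -10, and none of the 5 motifs was found in the Foxc1 stretch. A match is a description of these letters and not a binding site.

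Meox1 and Tcf15 mark tissue that has become or is becoming somite. Meox1 is a homeodomain factor of the whole somite (chr11:101877510-101894374, minus strand, 3 exon blocks). Tcf15, also called paraxis, is a basic helix-loop-helix factor needed for the epithelial wall of somites (chr2:152143561-152149097, plus strand, 2 exon blocks). In FPKM, which allows levels of different genes to be compared per length, Meox1 was the highest of the 10 members at 120 h, at 115 in wt Activin A, 145 in Hox-/- Activin A and 224 in Chiron gastruloids (means, n = 2). In CPM, wt Activin A gastruloids held 5.24 and 6.01 of Meox1 at 96 h and 278 and 290 at 120 h. Hox-/- gastruloids held 1.17 and 0.736 at 96 h and 338 and 349 at 120 h. Hox-/- gastruloids thus started below wt and ended above it, with no overlap at either time. Meox1 was lower in Hox-/- by a log2 fold change of -2.45 ± 0.20 at 96 h and higher by 0.38 ± 0.04 at 120 h (edgeR, adjusted p = 2.2e-14 and 4.01e-11), the latter lost with limma on log2(FPKM + 0.1). Its interaction of genotype with time was 2.83 ± 0.21 (edgeR, adjusted p = 2.52e-16).

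Tcf15 followed the same course on a smaller scale. Its wt level was 3.82 and 3.22 CPM at 96 h and 48.6 and 46.2 CPM at 120 h in Activin A gastruloids. Hox-/- libraries held 2.34 and 2.27 CPM at 96 h and 66.5 and 60.9 CPM at 120 h. Tcf15 was lower in Hox-/- at 96 h by -0.54 ± 0.19 (log2, edgeR, adjusted p = 0.0192), a call that was lost without wt replicate 1 and without either Hox-/- replicate. At 120 h it was higher by 0.54 ± 0.07 (adjusted p = 1.85e-08), and its interaction of genotype with time was 1.08 ± 0.20 (adjusted p = 2.02e-05). In mES cells Tcf15 was at 3.59 and 4.27 CPM in wt and at 3.36 and 3.61 in Hox-/-. Tcf15 levels in mES cells, endoderm cultures and wt Activin A gastruloids at 96 h overlapped their neighbours in the order of levels. Chiron gastruloids at 96 h and all 120 h gastruloids stood above these groups without overlap.

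In Chiron gastruloids the somite genes were already present at 96 h. Meox1 was at 88.3 and 46.2 CPM at 96 h and at 567 and 515 CPM at 120 h; Tcf15 was at 14.8 and 8.29 and then at 83.1 and 80.2 CPM. The 96 h replicates differed 1.91 times for Meox1 and 1.79 times for Tcf15. Over members at 1 CPM or more, the median ratio of highest to lowest replicate was 1.73 in this group and 1.05 to 1.19 in the others. At 96 h wt Activin A gastruloids were below Chiron ones by -3.61 ± 0.21 (Meox1) and -1.74 ± 0.20 (Tcf15) on the log2 scale (edgeR, adjusted p = 5.38e-13 and 5.6e-08). At 120 h the gaps were -0.98 ± 0.14 and -0.84 ± 0.12 (adjusted p = 3.28e-06 and 8e-06), both lost with limma on log2(FPKM + 1). The gaps narrowed: the treatment by time interaction was 2.63 ± 0.26 for Meox1 (edgeR, adjusted p = 2.73e-08) and 0.90 ± 0.24 for Tcf15 (0.00402), the latter not called with DESeq2 or with limma on FPKM.

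**Figure D2:**
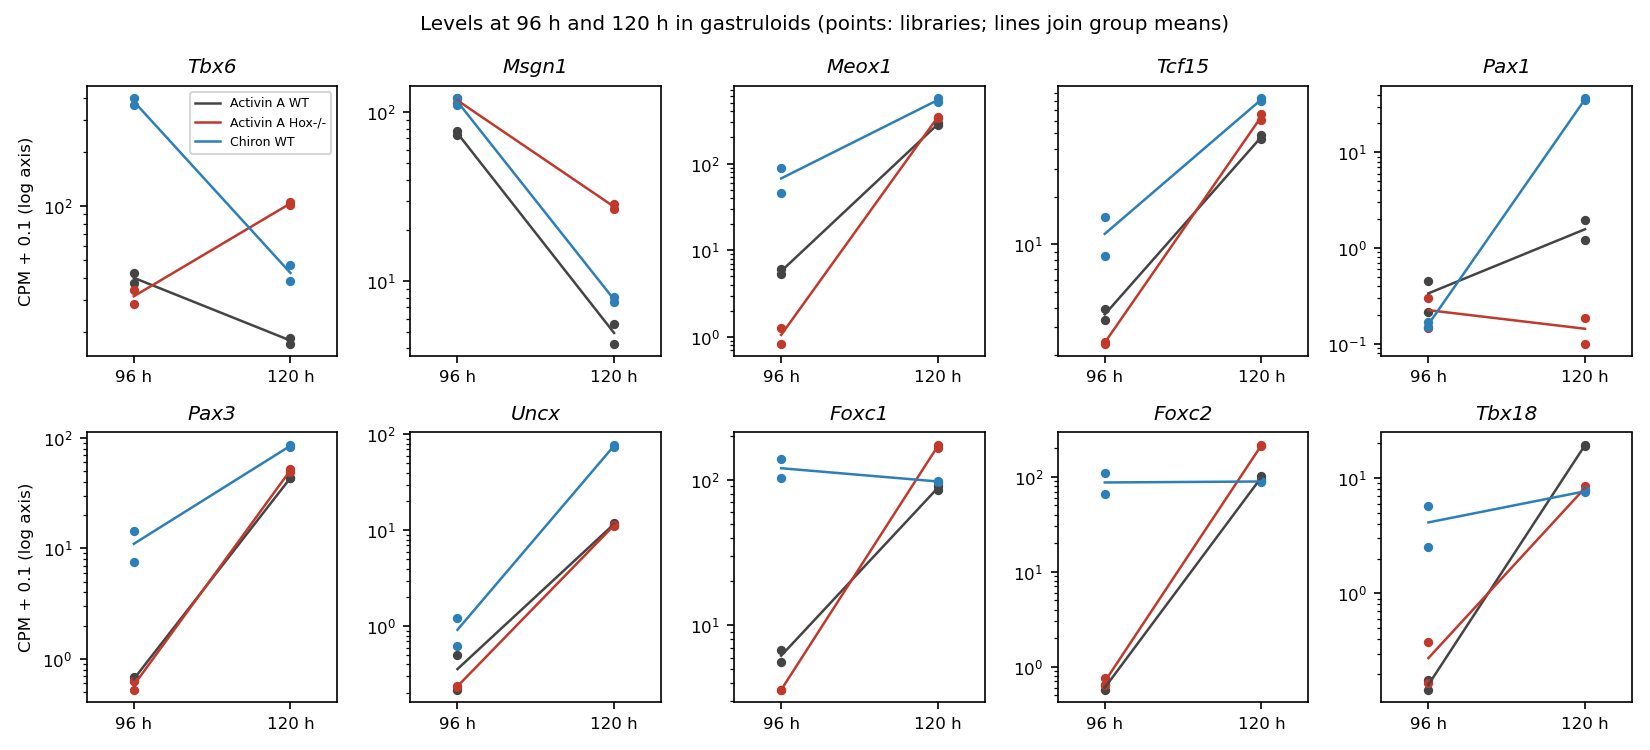
Levels of the members at 96 h and 120 h in wt Activin A, Hox-/- Activin A and Chiron gastruloids; points are libraries, lines join group means, and the axis is logarithmic. Tbx6 falls in both wt series and is higher at 120 h in Hox-/- Activin A gastruloids; Foxc1 and Foxc2 rise in both Activin A series and are already at 65.5 to 138 CPM at 96 h in Chiron gastruloids.

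Foxc1 and Foxc2 are paired forkhead factors that act redundantly in paraxial and intermediate mesoderm and in vessels. Each is a gene of 1 exon (Foxc1 at chr13:31806633-31812476 and Foxc2 at chr8:121116171-121118895, both plus strand). In wt Activin A gastruloids Foxc2 was at 0.533 and 0.465 CPM at 96 h and at 103 and 94.9 CPM at 120 h. Hox-/- libraries held 0.655 and 0.535 CPM at 96 h and 218 and 212 CPM at 120 h. Foxc1 was at 5.51 and 6.63 CPM in wt and at 3.51 and 3.48 CPM in Hox-/- at 96 h. At 120 h Foxc1 was at 90.5 and 85 CPM in wt and at 174 and 166 CPM in Hox-/-. Both genes were thus higher in every Hox-/- library at 120 h, by log2 fold changes of 1.07 ± 0.05 (Foxc1) and 1.24 ± 0.05 (Foxc2; edgeR, adjusted p = 7.14e-23 and 9.21e-27). At 96 h Foxc1 was lower in Hox-/- by -0.75 ± 0.15 (adjusted p = 5.57e-05) and Foxc2 was not called (0.33 ± 0.41, adjusted p = 0.561). The genotype by time interaction was called in the main edgeR fit for Foxc1 (1.82 ± 0.16, adjusted p = 9.1e-14) and not for Foxc2 (0.90 ± 0.42, adjusted p = 0.0839). For Foxc2 it was called with limma at pseudocounts 1 and 0.1 (1.13 and 1.06, adjusted p = 0.00104 and 0.00301). At 96 h Foxc2 rested on 24 counts in wt and 22 in Hox-/-, so the 2 genes were not shown to differ in this interaction.

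The Chiron gastruloids held both forkhead genes at 96 h, Foxc1 at 138 and 102 CPM and Foxc2 at 109 and 65.5 CPM. At 120 h Foxc1 was at 98.7 and 95.9 CPM and Foxc2 at 87.5 and 91.2 CPM. Foxc2 thus showed no called change over time there (-0.06 ± 0.13, edgeR, adjusted p = 0.714), and the 96 h replicates decided this value. Without Chiron 96 h replicate 1 Foxc2 was called higher at 120 h (0.37, edgeR, adjusted p = 4.12e-06), and without replicate 2 it was called lower (-0.37, adjusted p = 3.75e-06), within a range over all settings of 3.75e-06 to 1. Foxc1 was called lower at 120 h by -0.40 ± 0.09 (adjusted p = 0.00062), which was lost with DESeq2 and with limma on FPKM. Against Chiron at 96 h, wt Activin A gastruloids were lower by -4.35 ± 0.12 for Foxc1 and -7.48 ± 0.27 for Foxc2 (edgeR, adjusted p = 2.15e-19 and 2.26e-17). By 120 h neither difference was called in the main edgeR fit (-0.20 ± 0.10, adjusted p = 0.12, and 0.09 ± 0.14, adjusted p = 0.629). For Foxc1 this depended on the fit. It was called lower in Activin A with no filter (-0.18, edgeR, adjusted p = 0.0336) and with GC and length offsets (-0.39, adjusted p = 0.00475). The same held with the compared groups fitted alone (-0.17, adjusted p = 0.0245). With Chiron 96 h replicate 1 or 2 left out the value was -0.18, also called. The treatment by time interaction was 4.15 ± 0.16 for Foxc1 and 7.58 ± 0.33 for Foxc2 (edgeR, adjusted p = 1.39e-15 and 8.42e-15). The ratio of Foxc2 to Foxc1 in FPKM at 120 h was 2.53 and 2.48 in wt Activin A, 2.81 and 2.84 in Hox-/- Activin A and 1.97 and 2.12 in Chiron gastruloids. In GENCODE the span of a protein-coding model, Gm20388 (119910841-124345722), covers Foxc2 on the same strand. Gm20388 is not among the genes common to the 4 count tables. Its effect on the Foxc2 values was not tested and remains uncertain.

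Uncx and Tbx18 mark opposite parts of a somite and moved differently. Uncx is a homeodomain factor (chr5:139543494-139548179, plus strand, 3 exon blocks), and Tbx18 is a T-box repressor (chr9:87702800-87731260, minus strand, 9 exon blocks). At 120 h Uncx was at 11.9 and 11.2 CPM in wt Activin A, 11 and 11.4 CPM in Hox-/- Activin A, and 74.2 and 77.9 CPM in Chiron gastruloids. Tbx18 was at 19 and 19.3, at 7.76 and 8.42, and at 7.38 and 7.74 CPM in the same groups. Uncx had no genotype call at 120 h (0.07 ± 0.16, edgeR, adjusted p = 0.752). Its CPM values overlapped, its FPKM values did not (4.57 and 4.60 in wt, 3.59 and 3.66 in Hox-/-), and the sign of its fold change was negative with scaling by total counts and with limma on FPKM. Tbx18 was lower in Hox-/- by -1.14 ± 0.15 (edgeR, adjusted p = 6.35e-09).

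Between the treatments at 120 h the 2 half-somite genes went opposite ways. Uncx was lower in wt Activin A than in Chiron gastruloids by -2.77 ± 0.12 and Tbx18 was higher by 1.29 ± 0.22 (log2, edgeR, adjusted p = 6.71e-15 and 4.07e-05). The ratio of Tbx18 to Uncx in FPKM was 0.777 and 0.792 in wt Activin A gastruloids. It was 0.43 and 0.469 in Hox-/- Activin A and 0.054 and 0.0538 in Chiron gastruloids, with no overlap between the 3 groups. At 96 h Tbx18 rested on 3 counts in all in wt Activin A gastruloids (0.0444 and 0.0775 CPM) and on 7 in Hox-/- (0.281 and 0.0669 CPM). Its ratio of CPM at 120 h to CPM at 96 h was 309 in wt (95% counting interval 105 to 1500) and 41.9 in Hox-/- (19.9 to 106). The called interaction of genotype with time (-2.70 ± 0.91, edgeR, adjusted p = 0.0155) was lost without wt 96 h replicate 1, without Hox-/- 96 h replicate 1, and with counts thinned to the smallest library. The 2 genotypes therefore cannot be ordered firmly by the size of this rise. In Chiron gastruloids Tbx18 was at 5.6 and 2.43 CPM at 96 h; its rise to 120 h of 0.87 ± 0.25 (adjusted p = 0.00358) became 0.35 and lost its call without Chiron 96 h replicate 2.

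Uncx at 96 h was at 0.4 and 0.116 CPM in wt Activin A, 0.14 and 0.134 in Hox-/- Activin A and 1.12 and 0.52 in Chiron gastruloids. Uncx was higher at 120 h in all 3 series, by log2 changes of 5.42 ± 0.28, 6.25 ± 0.33 and 6.50 ± 0.16 (edgeR, adjusted p = 6.67e-23, 1.07e-22 and 7.05e-20). Neither interaction was called for Uncx in the main edgeR fit (0.84 ± 0.75, adjusted p = 0.402, for genotype and -1.10 ± 0.59, adjusted p = 0.143, for treatment). The treatment interaction was called with limma at pseudocounts 1 and 0.1 (-2.05 and -1.48, adjusted p = 0.00115 and 0.0431). It was also called without Activin A 96 h replicate 2 (-1.79) and without Chiron 96 h replicate 1 (-1.68). Its lower level in Activin A than in Chiron gastruloids at 96 h (-1.67 ± 0.47, adjusted p = 0.00404) was lost without Activin A 96 h replicate 2 and without Chiron 96 h replicate 1. Tbx18 was present in mES cells, at 7.3 and 6.92 CPM in wt and 4.93 and 3.95 in Hox-/-, beside 7.38 and 7.74 CPM in 120 h Chiron gastruloids. The span of a transcript model on the opposite strand, D030062O11Rik, covers exonic bases of Tbx18. D030062O11Rik was at 1.09 CPM or less on average in every group.

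Pax1 and Pax3 are paired-box factors of the 2 main parts of the somite. Pax1 spans chr2:147361925-147393295 (plus strand, 7 exon blocks) and Pax3 spans chr1:78101267-78197134 (minus strand, 9 exon blocks). Pax1 was at 36.6 and 34.9 CPM in Chiron gastruloids at 120 h, at 1.84 and 1.1 CPM in wt Activin A gastruloids and at 0.0862 and 0 CPM in Hox-/- ones. All other groups held at most 0.355 CPM in any library. The wt Activin A libraries at 120 h held 27 counts in all and the Hox-/- libraries 1 count, a ratio of CPM of 32.8 (95% counting interval 5.4 to 1340). The gene was called lower in Hox-/- (edgeR, adjusted p = 1.49e-05); its fitted log2 fold change of -4.70 depends on the prior count. From 96 h to 120 h the Pax1 ratio in Chiron gastruloids was 590 (201 to 2870), from 3 counts to 766. The Pax1 interactions with genotype (-3.75, adjusted p = 0.0466) and with treatment (-6.38, adjusted p = 3.39e-06) rest on these few counts. The genotype interaction was lost in 5 of the fits that left out 1 library, and the treatment interaction with thinned counts. The span of an antisense gene, AI646519, covers exonic bases of Pax1. AI646519 was at 3.28 CPM (mean) in Chiron gastruloids at 120 h and at most 0.0431 CPM (mean) in the other groups. Whether counting used strand is not given in the sources used here.

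Per length, Pax3 stood above Pax1 in wt Activin A gastruloids at 120 h, at 10.6 against 0.448 FPKM (means, n = 2). At 96 h it was at 0.533 and 0.581 CPM in wt and at 0.421 and 0.535 CPM in Hox-/-. At 120 h it was at 43.6 and 43 CPM in wt, 49.5 and 52.4 CPM in Hox-/- and 86.6 and 83 CPM in Chiron gastruloids. The genotypes overlapped at 96 h and not at 120 h, where Pax3 was higher in Hox-/- by 0.34 ± 0.08 (log2, edgeR, adjusted p = 0.000173), a call that was lost with limma on FPKM. Chiron gastruloids at 96 h already held 14.4 and 7.39 CPM of Pax3. Wt Activin A gastruloids were below Chiron ones by -4.28 ± 0.31 at 96 h and -1.02 ± 0.13 at 120 h (edgeR, adjusted p = 2.87e-11 and 1.4e-06), with an interaction of 3.25 ± 0.38 (adjusted p = 2.41e-07) that was lost with limma on log2(FPKM + 1). In FPKM, Hox-/- Activin A gastruloids at 120 h thus held the dermomyotome factor Pax3 at 12.7 and the sclerotome factor Pax1 at 0.0153 (means, n = 2).

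**Figure D3:**
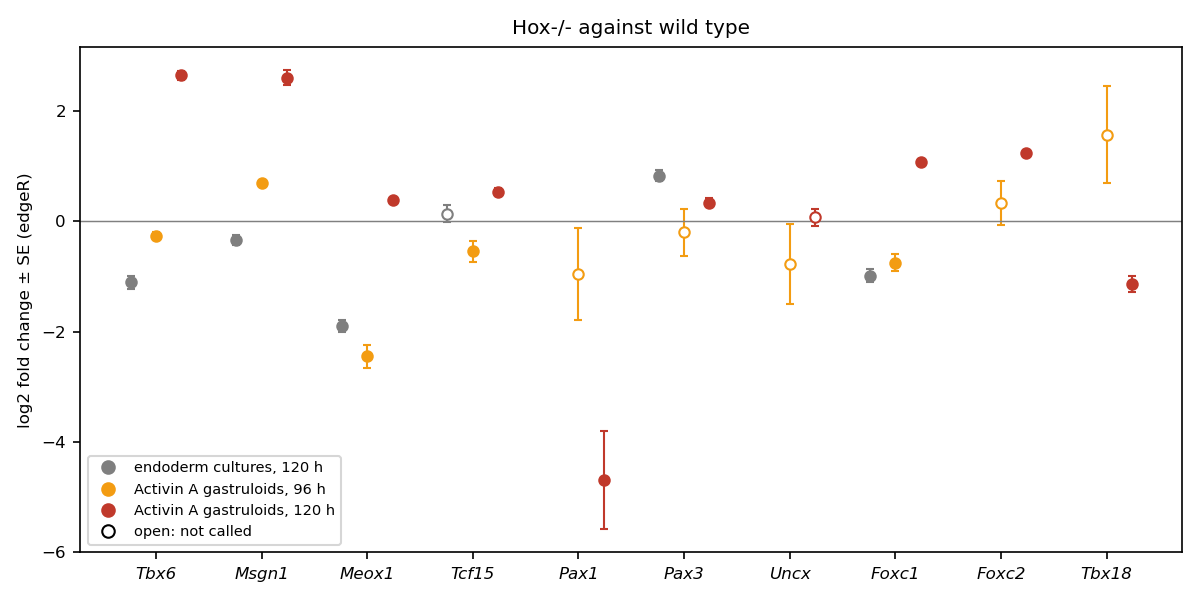
Log2 fold change of each member in Hox-/- against wt, with its standard error, in endoderm cultures and in Activin A gastruloids at 96 h and 120 h; open symbols are not called. Tbx6 and Msgn1 stand at 2.65 and 2.61 at 120 h, Meox1 at -2.45 at 96 h and 0.38 at 120 h, and Pax1 at -4.70 at 120 h.

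Over the 10 members, Hox-/- and wt Activin A gastruloids at 120 h differed in 9, of which 7 were higher and 2 (Pax1 and Tbx18) lower in Hox-/-. Of all 16831 genes tested there, 50.4% were called, 24.9% higher and 25.5% lower. At 96 h 5 members were called, against 38.9% of all genes (22.2% higher, 16.7% lower): Msgn1 was higher and Tbx6, Meox1, Tcf15 and Foxc1 were lower. The genotype by time interaction was called for 7 members, 5 positive and 2 negative, against 38.9% of all genes (18.7% positive, 20.2% negative). The median log2 fold change of the members was -0.40 at 96 h and 0.46 at 120 h, beside 0.03 and -0.02 over all genes. Scaling by total counts alone moved the median of all genes at 120 h to -0.13 and the share of higher among called genes from 49.4% to 34.6%; at 96 h it moved that share from 57% to 42.5%. Every direction called among members held under that scaling. In bulk RNA, fewer cells of a type and less RNA per cell cannot be told apart.

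Genes of the surrounding pathway were counted from lists chosen with earlier results of these data known. Of 8 genes of the segmentation clock and its boundary, 7 were higher and 1 lower in Hox-/- gastruloids at 120 h, with a median of 2.42 and a summed level of 309 CPM in wt and 1398 in Hox-/-. Mesp2, which sets the next somite boundary, was at 8.72 and 88.2 CPM (means, n = 2; log2 3.45 ± 0.10, edgeR, adjusted p = 2.33e-33). The Notch ligand Dll1 was at 103 and 586 CPM (2.61 ± 0.05) and the Notch feedback gene Nrarp at 52.9 and 303 CPM (2.63 ± 0.05). Ripply1, a repressor that ends Tbx6 activity in forming somites, was the 1 lower gene, at 7.19 and 4.22 CPM. At 96 h the same list had 2 genes higher, 2 lower and 4 not called. Among 7 genes of the caudal progenitors at 120 h, 3 were higher (Wnt3a by 1.63) and 2 lower (Cyp26a1 by -1.82).

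Of 6 other sclerotome genes, 5 were tested at 120 h in Hox-/- against wt Activin A gastruloids: none was higher, 3 were lower and 2 were not called. Pax9, a close relative of Pax1 that also marks pharyngeal endoderm, was at 9.2 CPM in wt and 0.503 CPM in Hox-/- (means, n = 2; log2 -4.09 ± 0.35, edgeR, adjusted p = 3.34e-14). Of 8 dermomyotome and myotome genes, 6 were tested, 4 were higher (Pax7 by 1.38 ± 0.24) and 1 was lower (Eya2 by -1.51 ± 0.15). Endoderm markers moved with Pax1 and Pax9: 8 of 8 were lower in Hox-/-. Their summed level was 917 to 927 CPM in wt and 55.2 to 58.4 in Hox-/-, and none was at the floor. This sum does not measure endoderm alone, since it was 628 CPM in wt and 653 in Hox-/- mES cells (means, n = 2). Their part in the Pax1 result was not tested. In Chiron gastruloids at 120 h, where Pax1 was highest, the endoderm sum was 61 to 65.6 CPM.

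Markers of other tissues that make these factors are given beside them. For Pax3, of 9 dorsal neural and neural crest genes, 8 were tested at 120 h, 1 was higher and 5 were lower in Hox-/-. Their summed level was 42.7 to 43.7 CPM in wt and 15.8 to 18.8 in Hox-/-, with 2 of the 9 at the floor in Hox-/-. Pax3 itself was higher in Hox-/-. For Foxc1 and Foxc2, 5 of 7 endothelial genes were higher in Hox-/- and none lower, with none at the floor. Their sums were 38.5 to 43.6 CPM in wt and 68 to 68.6 in Hox-/-. In mES cells the same sum was 127 CPM in wt and 188 in Hox-/- (means, n = 2), so it does not measure endothelium alone. For Tbx18, of 12 lateral, intermediate and cardiac mesoderm genes, 11 were tested, 4 were higher and 6 were lower, with sums of 180 to 185 and 138 to 139 CPM and 3 at the floor in Hox-/-. Hand2 was at 2.01 and 0.0431 CPM and Tcf21 at 1.09 and 0.0468 CPM (means, n = 2), both on few counts. The part of neural, endothelial and lateral cells in the Pax3, Foxc1, Foxc2 and Tbx18 results was not tested.

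Between 96 h and 120 h all 10 members were called in wt Activin A gastruloids, 8 higher and 2 (Tbx6 and Msgn1) lower at 120 h, where 74.9% of all genes were called, 37.2% higher and 37.8% lower. In Hox-/- gastruloids the test called 9 members, 8 higher and 1 (Msgn1) lower, against 72.4% of all genes (34.9% higher, 37.6% lower). In Chiron gastruloids 9 were called, 6 higher and 3 (Tbx6, Msgn1 and Foxc1) lower, against 61.7% (28.5% higher, 33.2% lower). The median member change was 4.60, 5.45 and 1.82 on the log2 scale, beside 0, -0.01 and -0.04 over all genes. With most genes called, the counts say less than the sizes. Among the large fitted changes over time were those of Foxc2 (7.54 ± 0.12) in wt Activin A, Foxc2 (8.44 ± 0.11) and Meox1 (8.41 ± 0.09) in Hox-/- Activin A, and Uncx (6.50 ± 0.16) in Chiron gastruloids. Tbx18 in wt Activin A (8.02 ± 0.30) and Pax1 in Chiron gastruloids (8.94 ± 0.27) start from 3 counts in all at 96 h, so they cannot be ranked against the others. Of 6 pluripotency markers 5 were lower at 120 h in wt Activin A, 4 lower and 1 higher in Hox-/- Activin A, and 3 lower and 2 higher in Chiron gastruloids. Their summed level was 1047 CPM at 96 h and 75.6 at 120 h in wt Activin A, and 893 and 20.2 in Hox-/- (means, n = 2). In Chiron gastruloids it was 240 and 273 CPM.

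**Figure D4:**
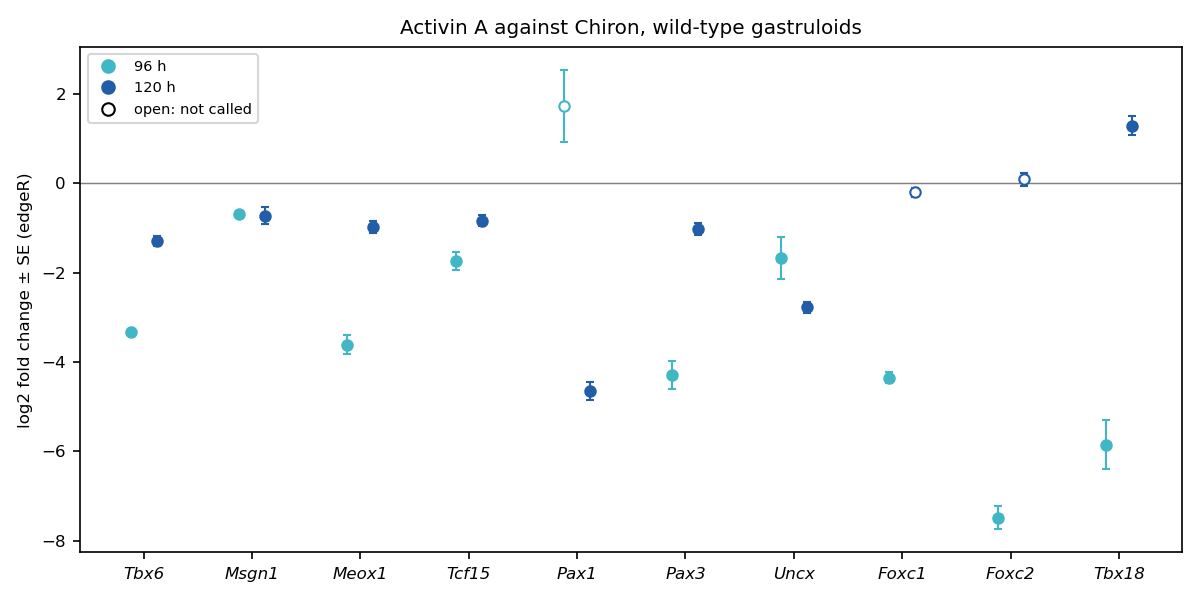
Log2 difference of each member in wt Activin A against Chiron gastruloids, with its standard error, at 96 h and 120 h; open symbols are not called. At 96 h 9 members lie below 0, down to -7.48 for Foxc2; at 120 h Foxc1 and Foxc2 lie near 0 and Tbx18 at 1.29.

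Activin A and Chiron gastruloids of wt differed at 96 h in 9 members, all lower in Activin A, where 61.6% of all genes were called, 31.3% higher and 30.2% lower. The median member difference was -3.46 on the log2 scale, beside 0 over all genes. At 120 h 8 were called, 7 lower and 1 (Tbx18) higher, against 41.9% of all genes (20.3% higher, 21.6% lower), and the median was -0.91 beside -0.01. The treatment by time interaction was called for 8 members, 7 positive and 1 (Pax1) negative, against 39.6% of all genes (21.7% positive, 18% negative). Positive values mean that Activin A gastruloids gained more, or lost less, from 96 h to 120 h than Chiron gastruloids. For Msgn1 that interaction was -0.04 ± 0.19 (edgeR, adjusted p = 0.932), with near-equal falls in both treatments. The wt Activin A libraries are shared by the genotype, time and treatment comparisons, so these comparisons are not independent of each other.

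Pathway lists differed in direction between Activin A and Chiron gastruloids at 96 h. Of the 7 caudal progenitor genes 4 were higher in Activin A (T by 1.64 ± 0.06 and Fgf8 by 1.18 ± 0.06 on the log2 scale) and 3 were lower, with a median of 0.23. Of the 8 segmentation genes 7 were lower in Activin A than in Chiron gastruloids and none higher, with summed levels of 251 to 258 and 1621 to 1874 CPM. Dll1 was at 45.1 and 829 CPM and Mesp2 at 0.793 and 38.5 CPM (means, n = 2; log2 -4.27 ± 0.07 and -5.64 ± 0.28). At 120 h 5 were lower and none higher, with sums of 306 to 313 and 506 to 520 CPM. Of the 6 sclerotome genes at 120 h 4 were lower and 2 higher in Activin A gastruloids, with a median of -1.15. Their sums were 79.3 to 81.8 CPM in Activin A and 65.7 to 70.6 CPM in Chiron gastruloids. The sum was thus higher in Activin A, while Meox2 was lower, at 3.64 against 23.1 CPM. Of the 6 tested dermomyotome and myotome genes 4 were lower and none higher, among them Pax7 (2.99 against 23.9 CPM) and Dmrt2 (25.5 against 99.1 CPM). Other tissues differed as well: 8 of 8 endoderm, 5 of 7 endothelial and 11 of 12 lateral, intermediate and cardiac genes were higher in Activin A gastruloids at 120 h. Their part in the member differences was not tested.

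In endoderm cultures 5 of 6 tested members differed between genotypes, 1 higher and 4 lower in Hox-/-. Of all 14975 genes tested, 46.2% were called, 23.1% higher and 23.1% lower. Meox1 was at 17.4, 18.3 and 18.7 CPM in wt and 5.06, 4.8 and 4.6 CPM in Hox-/-, lower by -1.90 ± 0.10 (log2, edgeR, adjusted p = 3.4e-09). Tbx6 was at 18.3, 13.3 and 15.5 and at 7.33, 7.44 and 6.74 CPM, lower by -1.11 ± 0.12 (adjusted p = 5.76e-06). So Tbx6 was lower in Hox-/- in these cultures, harvested at 120 h, and in 96 h Activin A gastruloids. The 96 h call was lost in some fits with single libraries left out. In 120 h Activin A gastruloids Tbx6 was higher in Hox-/-. Msgn1 was at 19.2, 18.2 and 21.6 and at 15.5, 15.9 and 14.9 CPM (-0.34 ± 0.09, edgeR, adjusted p = 0.00626). Foxc1 was at 17.3, 16.3 and 20.1 and at 9.72, 7.69 and 9.39 CPM (-0.99 ± 0.12, adjusted p = 9.42e-06). Pax3 was the higher gene, at 8.52, 8.97 and 9.78 and at 15.1, 17.3 and 16.1 CPM (0.83 ± 0.10, adjusted p = 1.19e-05). No Hox-/- library lay within the wt range for these 5 called genes, but the share of all genes without overlap was not computed. Pax1 was at the floor in both genotypes.

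Pax3 was the tested member called higher, and Tcf15 was not called (0.14 ± 0.16, adjusted p = 0.5). The dorsal neural and neural crest list had 2 genes higher and 2 lower of 5 tested, with sums of 98.2 to 121 CPM in wt and 69.9 to 78.1 in Hox-/-. The 8 endoderm markers were all lower in Hox-/- cultures (sums of 1118 to 1123 and 685 to 738 CPM), and all 6 pluripotency markers were lower (sums of 720 to 844 and 209 to 228 CPM). The part of these changes in cell makeup in the member results was not tested. Pax1, Uncx, Foxc2 and Tbx18 did not pass the filter on low counts. Uncx rested on 33 counts in Hox-/- and 6 in wt over 3 libraries, a ratio of CPM of 4.56 (95% counting interval 1.89 to 13.3), and Tbx18 on 28 and 9, a ratio of 2.58 (1.18 to 6.21). Pax9 was again lower in Hox-/- (log2 -4.47 ± 0.37, edgeR, adjusted p = 3.06e-07).

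In mES cells 6 of the 10 members were at the floor in each genotype, and 2 passed the filter. Of all 13631 genes tested 23.2% were called, 12.4% higher and 10.8% lower. Tbx18 was called lower in Hox-/- (-0.68 ± 0.18, edgeR, adjusted p = 0.00534) and Tcf15 was not called (-0.17 ± 0.22, adjusted p = 0.634). The Tbx18 call was lost with DESeq2, with limma on FPKM, without wt replicate 1 and without Hox-/- replicate 2. Meox1 rested on 21 counts in Hox-/- and 6 in wt, a ratio of CPM of 3.87 (95% counting interval 1.51 to 11.7). Pax3 and Uncx had no count in any mES library, which allows at most the floor given above.

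The members did not share a single pattern over the 22 libraries. As a description, since libraries of a group and time are not independent, Pearson's r of log2(CPM + 1) was 0.948 for Tcf15 with Uncx and 0.944 for Meox1 with Foxc1. It was 0.823 for Tbx6 with Msgn1 and -0.523 for Msgn1 with Tbx18. Among 11718 genes with at least 10 CPM in a group, those most like Tbx6 were F11r (0.972), Txnrd3 (0.968) and Cited1 (0.968). Those most like Meox1 were Tube1 (0.98), Fgfr2 (0.965) and Ppib (0.964), and those most like Pax3 were Rtl5 (0.983), Nr2f2 (0.982) and Nbl1 (0.98). The ratio of Tbx6 to Meox1 in FPKM at 120 h, unsegmented against segmented, was 0.0788 and 0.0691 in wt Activin A gastruloids. It was 0.36 and 0.368 in Hox-/- Activin A gastruloids and 0.0815 and 0.11 in Chiron gastruloids, so the Hox-/- libraries lay above all others.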

How the data were processed

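Poly(A) RNA was made into libraries with the TruSeq Stranded mRNA kit, per the labels' protocols. Reads were processed with cutadapt 1.16, STAR and Cufflinks 2.2.1 on mm10, per the submitters' processing notes; the counting tool, its strand setting and the annotation are not given in the sources used here. As deposited, the count tables give raw whole numbers for each Ensembl gene in each library. Separate deposited tables give FPKM with gene symbols and loci. The 4 wt Activin A libraries are in both gastruloid tables with identical counts.

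Groups were taken from the labels. Counts were tested with edgeR 4.0.16 (R 4.3.3): filterByExpr, TMM, one coefficient per group, glmQLFTest, Benjamini-Hochberg over all genes of a table, called at an adjusted p under 0.05. The 4 groups of a gastruloid table shared one fit; 11 comparisons were made. edgeR was tested on simulated data first. CPM are counts scaled to the library total, and counting intervals (95%, Clopper-Pearson) and floors cover counting error only. Positions are those of GENCODE M21 on GRCm38 (mm10), 1-based. Members, lists and the naming rule (all members; up to 3 called genes of largest fold change per list and comparison; 3 genes most like Tbx6, Meox1 and Pax3) were chosen with earlier results of these data known; some of the genes it picks are not reported here. Alternatives were RLE size factors, total counts alone, no filter, a minimum of 10 counts per library, DESeq2 1.42.0, limma 3.58.1 on log2(FPKM + 1) and, with FPKM of at least 1, on log2(FPKM + 0.1), a replicate block, fits on the groups compared, removal of the 39 Hox genes and each library left out; GC and length offsets and thinned counts were chosen after seeing the data.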

Additional observations from a re-analysis of the deposited data

Results flagged for a closer look

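Changes over time that differed between the 2 genotypes, by the interaction in edgeR's test across all genes, were found for 7 members in Activin A gastruloids. Of all genes 38.9% were called. On the log2 scale they were 2.92 for Tbx6, 1.91 for Msgn1, 2.83 for Meox1, 1.08 for Tcf15 and 1.82 for Foxc1, where Hox-/- gastruloids gained more or lost less. They were -3.75 for Pax1 and -2.70 for Tbx18, both of which rest on few counts at 96 h and lost their call when single libraries were left out.

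Changes over time that differed between Activin A and Chiron gastruloids of wt were found for 8 members, where 39.6% of all genes were called. The member values were 2.03 for Tbx6, 2.63 for Meox1, 0.90 for Tcf15, 3.25 for Pax3, 4.15 for Foxc1, 7.58 for Foxc2 and 7.14 for Tbx18, where Activin A gastruloids gained more or lost less. The value for Pax1 was -6.38. The sizes for Tbx18 and Pax1 are imprecise, since they rest on few counts at 96 h. In wt Activin A gastruloids there were 3 counts of Tbx18 and 11 of Pax1, and in Chiron gastruloids 3 of Pax1. All 8 interaction values rest in part on the pair of Chiron libraries at 96 h, which stood apart from other replicate pairs.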

How the results depend on the processing

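Of 98 tested log2 fold changes of members 80 were called. Over 1533 alternative fits that tested these, 1487 kept the call and direction, 46 lost the call and 0 reversed. Of the 80, 63 kept both in every fit that tested them. Fits whose filter removed the member are not counted, such as many with at least 10 counts in every library. Some counted fits left out a library of a group outside the comparison, where little change is possible. Of the 18 values not called, 10 changed sign in some fit. These were Tcf15 in mES cells (0.03 with GC and length offsets), Pax3 between genotypes at 96 h (0.61 with thinned counts) and Uncx there (-1.43 to 0.27 with single libraries left out, the latter without ActA_WT_96 replicate 1). Uncx between genotypes at 120 h was -0.04 with total counts alone, -0.27 and -0.33 with limma at pseudocounts 1 and 0.1. Between treatments, Pax1 at 96 h was -2.38 with thinned counts and Foxc2 at 120 h was -0.12 with GC and length offsets. Foxc2 over time in Chiron gastruloids was 0.05 with total counts alone, 0.00 and 0.01 with limma at pseudocounts 1 and 0.1, and -0.37 to 0.37 with single libraries left out (0.37 without Chiron 96 h replicate 1, adjusted p = 4.12e-06, and -0.37 without replicate 2, adjusted p = 3.75e-06; over all settings the adjusted p was 3.75e-06 to 1). Among genotype by time interactions, Pax3 was -0.32 with thinned counts, and Uncx was -0.20 with limma on log2(FPKM + 1) and -0.20 to 1.5 with single libraries left out (-0.20 without ActA_WT_96 replicate 1). The Msgn1 treatment by time interaction was 0.23 and 0.18 with limma at pseudocounts 1 and 0.1, 0.26 with GC and length offsets, and -0.23 to 0.16 with single libraries left out (0.01 without Chiron 96 h replicate 1, 0.04 without Chiron 120 h replicate 1, 0.16 without Activin A 120 h replicate 2). The cause of these changes was not tested.

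Counts of members called moved as follows. In mES cells the count of 1 became 2 with no filter, 0 with DESeq2 and with either limma fit, and 0 to 2 with single libraries left out (0 without wt replicate 1 or Hox-/- replicate 2, 2 without Hox-/- replicate 1). Between genotypes at 96 h the count of 5 became 3 with limma on log2(FPKM + 1) and 3 to 5 with single libraries left out (3 without wt 96 h replicate 1 or Hox-/- 96 h replicate 2). With at least 10 counts in every library, which tests fewer genes, 5 were called between genotypes at 120 h (of 9), between treatments at 120 h (of 8), and over time in wt (of 10) and Hox-/- (of 9) Activin A gastruloids. Limma on log2(FPKM + 1) called 5 between treatments at 120 h. Over whole tables, DESeq2 and limma at pseudocounts 1 and 0.1 called 1099, 23 and 372 genes in mES cells, where edgeR called 3168, and 1477 or 1690 without wt replicate 1 or 2. Between genotypes at 96 h they called 3647, 2665 and 2787, against 6546. Limma at pseudocount 1 called 4469 of edgeR's count of 6921 in endoderm cultures, and at 0.1 it called 6670 against 10655 between treatments at 96 h; the genotype by time counts were 4193 and 4264 against 6544.

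With the replicate number as a replicate block, 5 members were called in endoderm cultures and 1 in mES cells, as without it, and no member lost or gained a call in any comparison. Deviations of same-numbered libraries from their group means correlated weakly, with r of -0.203 to 0.209 in endoderm cultures and -0.0477 to 0.0849 elsewhere. In groups of 2 libraries both replicates give the same r, and differently numbered libraries were not compared. These values therefore cannot decide whether the numbers pair the libraries. Few counts limit the precision of the Pax1, Uncx and Tbx18 fold changes. In Activin A gastruloids at 96 h, 2 libraries together held 3 to 12 counts of each, at library totals of 14.95 to 25.81 M.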
